A study of Mus musculus with 18 samples.

Results

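The genes described here encode 2 families of collagen cross-linking enzymes: the lysyl oxidases (*Lox*, *Loxl1*, *Loxl2*, *Loxl3* and *Loxl4*) and the lysyl hydroxylases (*Plod1*, *Plod2* and *Plod3*). The proteins are LOX, LOXL1, LOXL2, LOXL3, LOXL4, PLOD1, PLOD2 and PLOD3. The genes were taken by symbol from the deposited count tables of the 2 cell lines, where all 8 were present among 24360 symbols in each table. RNA-seq counts were available for 168FARN and 67NR, 2 lines of mouse mammary tumour cells that are normally not metastatic, cultured in DMEM with fetal bovine serum. In each line WT, *Kmt2c* knockout (KO) and *Kmt2d* KO cells were compared, with 3 replicates per group and 18 libraries in all. KMT2C and KMT2D place methyl groups on lysine 4 of histone H3, mostly at enhancers. The KO cells came from CRISPR/Cas9 with guide pools against the first exon and were sorted as pools rather than grown from 1 clone. The comparison cells of 168FARN carry a control guide by their column names, whereas the 67NR columns read WT. The term WT covers both here. Replicates of a line were collected 1 passage apart, so p-values measure the spread between cultures of the same pool.

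Lysyl hydroxylases act inside the endoplasmic reticulum, where they add hydroxyl groups to lysines of newly made collagen chains. Lysyl oxidases are copper enzymes that act outside the cell, where they turn lysines and hydroxylysines of collagen and elastin into reactive aldehydes that then form cross-links between molecules. The hydroxylation state of a lysine decides which cross-link forms, and cross-linked collagen is stiffer and harder to degrade. In breast tumours these enzymes are known for stiffening the matrix around tumour cells, and several of them respond to low oxygen.

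The catalytic sites of both families are short and conserved, and their coding sequences are shown to compare the family members. Whether reads were shared between members was not tested. In the lysyl oxidases the stretch around the copper-binding histidines is 33 bases long and spans an exon junction in each gene. Its positions in mm9, from the first to the last base with the intron included, are chr9:58141527-58142188 on the minus strand for *Loxl1* (exons 3 and 4 of 7), chr14:70082123-70088844 on the plus strand for *Loxl2* (exons 10 and 11 of 14), chr6:82999989-83000119 on the plus strand for *Loxl3* (exons 10 and 11 of 14) and chr19:42673297-42674389 on the minus strand for *Loxl4* (exons 11 and 12 of 15). Capitals mark positions at which the 4 genes are not all alike.
Loxl1: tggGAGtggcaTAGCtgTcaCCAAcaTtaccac
Loxl2: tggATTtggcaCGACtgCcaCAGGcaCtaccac
Loxl3: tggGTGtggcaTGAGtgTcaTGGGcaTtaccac
Loxl4: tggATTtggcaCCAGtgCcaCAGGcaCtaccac

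Of these 33 bases, 20 were the same in all 4 genes, and *Loxl2* and *Loxl4* were the closest pair with 31 identical bases. Over the whole coding sequences, the longest run shared exactly by any pair of these 4 genes was 28 bases, between *Loxl1* and *Loxl2*. In the lysyl hydroxylases the stretch around the iron-binding histidine and aspartate is 24 bases long and lies within 1 exon, at chr4:147287368-147287391 on the minus strand for *Plod1* (exon 18 of 19), chr9:92501665-92501688 on the plus strand for *Plod2* (exon 19 of 20) and chr5:137470866-137470889 on the plus strand for *Plod3* (exon 18 of 19).
Plod1: caccaTgaCGcCtcTaccttCacC
Plod2: caccaCgaTGcCtcAaccttTacC
Plod3: caccaTgaCTcGtcCaccttCacT

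Here 17 of the 24 bases were shared by the 3 genes, and the longest run shared by a pair over the whole coding sequences was 24 bases, between *Plod1* and *Plod3*. Overlap with other genes concerned 2 members. The exons of *Loxl3* share 535 bases, or 12.8% of its exon length, with *Htra2* on the opposite strand, and those of *Plod3* share 529 bases, or 11.7%, with *Znhit1* on the opposite strand. The paper describes strand-specific library kits. Whether the counting used strand is not given in the sources used here, so counts of these 2 members are uncertain to that extent.

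Promoter sequences were matched for *Loxl4*, *Plod1* and *Plod3* in RefSeq (GRCm38.p6) and are shown because in 67NR *Plod1* was called higher in both KOs, *Loxl4* in 1 of them under some fits, such as that with replicates paired, and *Plod3* in neither. Each run is the 250 bases before the start of the gene, and capitals mark GGGCGG and ACGTG on either strand. They lie at chr19:42612807-42613056 on the minus strand for *Loxl4*, chr4:147936777-147937026 on the minus strand for *Plod1* and chr5:136986769-136987018 on the plus strand for *Plod3*.
Loxl4: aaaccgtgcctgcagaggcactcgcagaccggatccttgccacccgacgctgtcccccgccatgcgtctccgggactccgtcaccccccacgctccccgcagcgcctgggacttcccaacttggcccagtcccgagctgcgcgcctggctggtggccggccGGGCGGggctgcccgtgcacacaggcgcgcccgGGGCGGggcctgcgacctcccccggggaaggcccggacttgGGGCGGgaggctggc
Plod1: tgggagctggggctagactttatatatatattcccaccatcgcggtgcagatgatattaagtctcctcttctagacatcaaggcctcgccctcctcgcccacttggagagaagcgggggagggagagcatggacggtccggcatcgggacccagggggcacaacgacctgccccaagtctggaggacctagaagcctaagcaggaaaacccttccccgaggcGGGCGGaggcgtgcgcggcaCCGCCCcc
Plod3: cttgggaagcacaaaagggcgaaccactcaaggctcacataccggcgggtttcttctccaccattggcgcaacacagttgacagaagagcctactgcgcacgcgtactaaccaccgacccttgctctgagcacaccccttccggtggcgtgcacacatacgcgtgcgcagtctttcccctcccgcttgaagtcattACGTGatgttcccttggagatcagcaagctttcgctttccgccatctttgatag

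*Loxl4* held 3 matches to GGGCGG, *Plod1* held 2 and *Plod3* none, and 32.7% of 32851 promoters of the same length held at least 1. ACGTG, a form of the core of the element bound by hypoxia-inducible factors, had 1 match in *Plod3* and is present in 16.6% of promoters. Core forms without ACGTG were not counted, so the other 2 runs may hold them. TATAAA had 1 match in *Plod1*, as its reverse complement, and is present in 12.4%. CACGTG, which contains ACGTG, had no match in the 3 runs and is present in 6.02%. All 3 were rich in CpG, with 27 in *Loxl4*, 16 in *Plod1* and 17 in *Plod3* against a median of 6.

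The total count on genes was 14359760 to 43427382 per library in 168FARN and 40951775 to 79251530 in 67NR, and a count of 0 in a library allows a level of up to 0.0379 to 0.209 CPM (counts scaled to library size), for counting error only. CPM values are given after TMM scaling over the 18 libraries, and replicates 1, 2 and 3 are listed in that order. Replicate 3 stood apart in both lines: the deviations of its libraries from their group means correlated across genes with those of replicates 1 and 2, between -0.89 and -0.78 for 168FARN and between -0.78 and -0.55 for 67NR. Results are therefore also given without replicate 3. The targeted genes do not check the labels, since small edits in the first exon need not lower the mRNA: *Kmt2c* differed from WT by -0.18 (log2) in 168FARN *Kmt2c* KO (SE 0.49, edgeR adjusted p = 1) and was higher by 0.63 in 67NR *Kmt2c* KO (SE 0.137, edgeR adjusted p = 0.00669), and *Kmt2d* differed by 0.71 in 168FARN *Kmt2d* KO (SE 0.361, edgeR adjusted p = 1; higher by 0.66 with replicates paired, adjusted p = 0.00622) and by 0.22 in 67NR *Kmt2d* KO (SE 0.231, edgeR adjusted p = 0.563).

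In WT cells of both lines *Plod2* was the hydroxylase and *Loxl4* the oxidase with the highest level per length. Per kilobase of exon, *Plod2* was at 46.7 ± 1.15 CPM in 168FARN and 30.1 ± 11.2 in 67NR (SD, n = 3). *Loxl4* was at 25.3 ± 2.61 and 18.4 ± 5.51 CPM per kilobase, and *Plod3* followed at 18.1 ± 1.88 and 13.7 ± 2.16. *Loxl3* was at 11.7 ± 2.36 CPM per kilobase in 168FARN and 3.81 ± 0.148 in 67NR, *Plod1* at 5.75 ± 1.07 and 2.12 ± 0.283, and *Loxl1* at 6.31 ± 2.06 and 0.711 ± 0.0881. *Loxl2* was low in both lines, at 0.103 ± 0.0391 and 0.0850 ± 0.0237 CPM per kilobase. *Lox* itself had no count in 14 of the 18 libraries, including all 9 of 168FARN and the WT libraries of 67NR.

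In 67NR, KO of either methyltransferase went with higher mRNA of *Loxl1*, *Loxl2*, *Loxl3*, *Plod1* and *Plod2*, while *Plod3* was close to its WT level. *Loxl1* showed the largest difference, at 12.6-fold in *Kmt2c* KO and 8.19-fold in *Kmt2d* KO. Of the 7 members that could be tested, 5 were called higher and 0 lower in *Kmt2c* KO, where 17.9% of 13665 tested genes were called higher and 17.4% lower. In *Kmt2d* KO the same 5 were called higher and 0 lower, against 13.9% of tested genes called higher and 11.6% lower. Calls needed a log2 fold change beyond 0.6 in size and an edgeR adjusted p under 0.1. Over the 7 members the log2 fold changes had a median of 1.22 in *Kmt2c* KO and 0.88 in *Kmt2d* KO, beside -0.02 over all tested genes in each. Both comparisons use the same 3 WT libraries, so they are not independent. Without replicate 3, the same 5 members were called in both comparisons, against 23% and 19% of genes called higher.

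**Figure D1:**
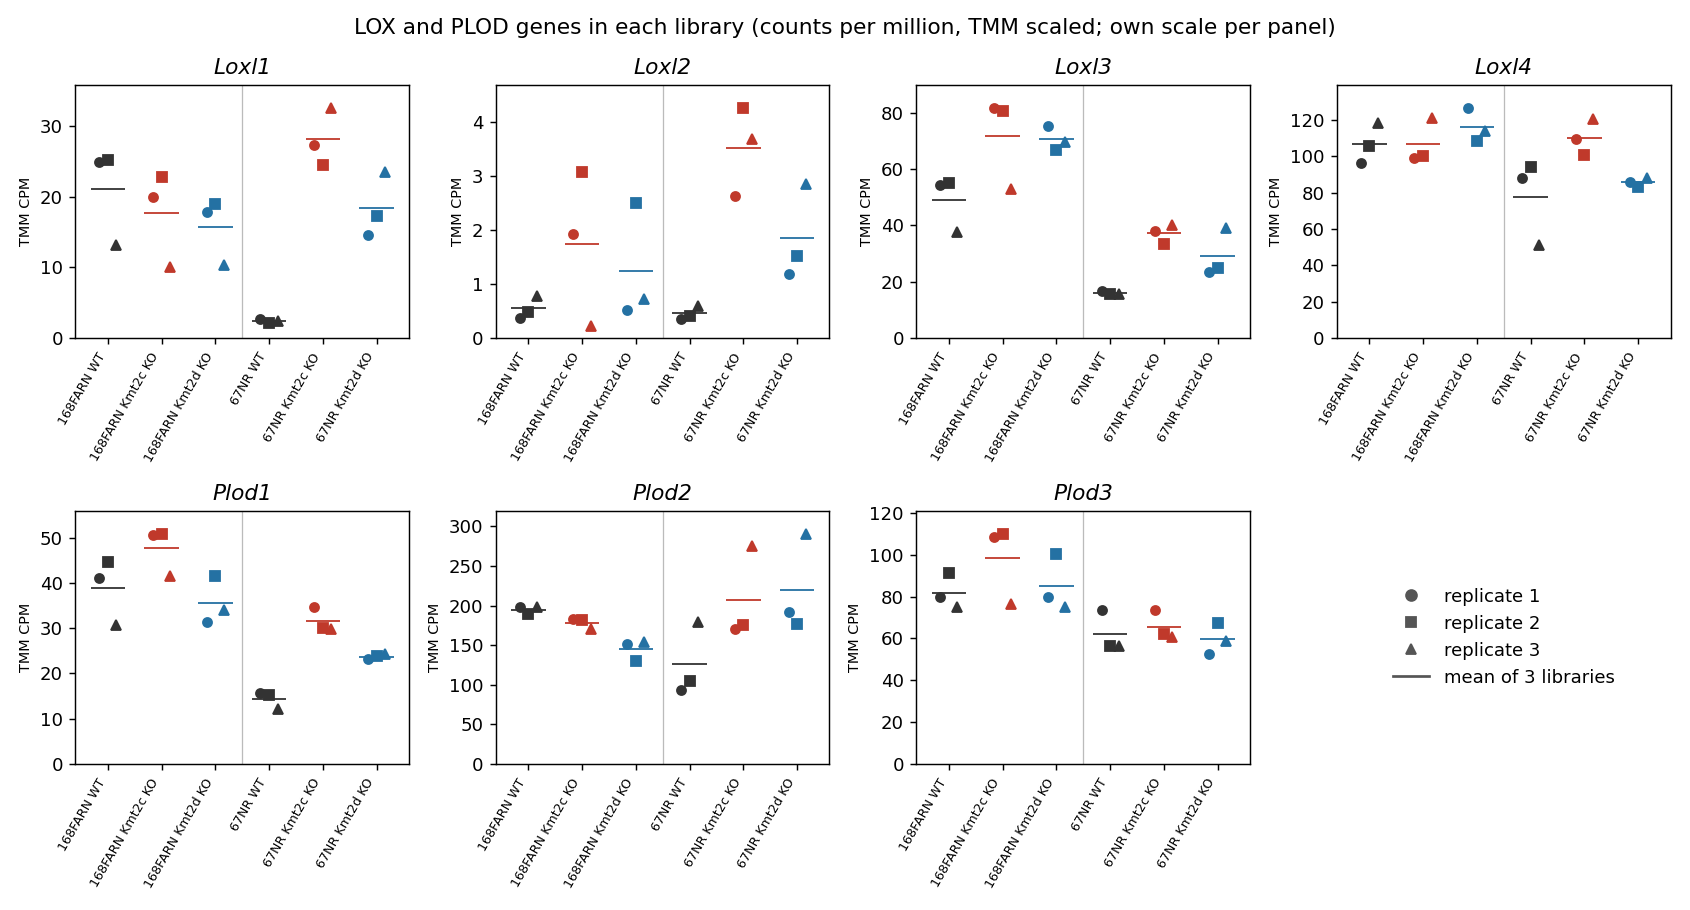
Level of 7 LOX and PLOD genes in each of the 18 libraries, in CPM after TMM scaling (y axis, a separate scale per gene), by line and genotype (x axis); symbols mark replicates 1, 2 and 3 and lines the mean of 3 libraries. In 67NR the WT libraries of *Loxl1* sit between 2.07 and 2.66 and all 6 KO libraries between 14.6 and 32.6, whereas in 168FARN the 3 genotypes overlap.

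*Loxl1* encodes a lysyl oxidase best known for its role in elastic fibres. Its level in the 67NR WT libraries was 2.66, 2.07 and 2.39 CPM. The *Kmt2c* KO libraries stood at 27.4, 24.5 and 32.6 CPM, and those of *Kmt2d* KO at 14.6, 17.3 and 23.5 CPM. Every KO library was above every WT library. Its log2 fold change was 3.65 in *Kmt2c* KO (SE 0.237, edgeR adjusted p = 8.11e-06) and 3.03 in *Kmt2d* KO (SE 0.231, edgeR adjusted p = 3.06e-05). Within replicate numbers the KO exceeded WT in 3 of 3 for both genotypes, by a log2 ratio of 3.36 to 3.77 in *Kmt2c* KO and 2.46 to 3.30 in *Kmt2d* KO. Over the 6 groups, *Loxl1* was highest in 67NR *Kmt2c* KO, and the next 4 groups (168FARN WT, 67NR *Kmt2d* KO, 168FARN *Kmt2c* KO and 168FARN *Kmt2d* KO) each overlapped their neighbours. The 67NR WT group was lowest and overlapped none of them.

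*Loxl2*, an oxidase with scavenger receptor domains that has been studied in metastatic breast cancer, rested on few reads. The 67NR WT libraries held 30, 28 and 26 counts, or 0.354, 0.412 and 0.597 CPM. The *Kmt2c* KO libraries held 202, 279 and 157 counts (2.64, 4.26 and 3.68 CPM), and the *Kmt2d* KO libraries held 64, 83 and 114 counts (1.18, 1.53 and 2.86 CPM). All KO libraries were above all WT libraries. On the log2 scale the fold change was 3.05 in *Kmt2c* KO (SE 0.436, edgeR adjusted p = 0.000692) and 2.11 in *Kmt2d* KO (SE 0.426, edgeR adjusted p = 0.00719). Neighbouring groups in the order of *Loxl2* levels, from 67NR *Kmt2c* KO at 3.53 ± 0.825 CPM down to 67NR WT at 0.454 ± 0.127 CPM (SD, n = 3), all overlapped.

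*Loxl3* belongs to the same subgroup of oxidases as *Loxl2* and *Loxl4*. Its 67NR WT libraries were at 16.7, 15.6 and 15.7 CPM. Those of *Kmt2c* KO stood at 37.8, 33.4 and 40.2 CPM, and those of *Kmt2d* KO at 23.4, 24.7 and 39 CPM. The KO libraries did not overlap WT, and replicate 3 of *Kmt2d* KO was the highest of its group at 1.62 times the mean of replicates 1 and 2. *Loxl3* had a log2 fold change of 1.30 in *Kmt2c* KO (SE 0.205, edgeR adjusted p = 0.00124) and 0.93 in *Kmt2d* KO (SE 0.204, edgeR adjusted p = 0.0105), and 0.65 in the latter without replicate 3 (edgeR adjusted p = 0.000504). *Htra2*, which shares exonic bases with *Loxl3*, differed by 0.45 (SE 0.173) and 0.38 (SE 0.173) on the log2 scale in the same comparisons, with edgeR adjusted p-values of 0.072 and 0.149. With replicates paired *Htra2* was higher by 0.457 and 0.399, with edgeR adjusted p-values of 0.00792 and 0.0205. The 168FARN *Kmt2c* KO and *Kmt2d* KO groups had the highest *Loxl3* means and overlapped each other. The 168FARN WT group came next and overlapped 67NR *Kmt2c* KO, and 67NR WT was lowest with no overlap.

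*Loxl4* was at 88.0, 94.0 and 51.1 CPM in 67NR WT, with replicate 3 well below the others. In *Kmt2c* KO the libraries stood at 110, 101 and 120 CPM, and those of *Kmt2d* KO at 85.9, 83.0 and 88.2 CPM. All 3 *Kmt2c* KO libraries were above WT, and those of *Kmt2d* KO lay within the WT range. For *Kmt2c* KO the log2 fold change was 0.59 (SE 0.216, edgeR adjusted p = 0.0625), just under the threshold on size. With the replicates paired it was 0.61 (edgeR adjusted p = 0.0189), which made it the sixth member called higher, against 21.3% of genes called higher in that fit. It was called at 0.67 without WT replicate 1 and at 0.73 without WT replicate 2, and it was 0.29 without replicate 3. In *Kmt2d* KO the difference was 0.22 (SE 0.215, edgeR adjusted p = 0.528) and not called. Across the 6 groups the 3 of 168FARN and 67NR *Kmt2c* KO overlapped their neighbours in the order and had no library below 96.5 CPM, and 67NR *Kmt2d* KO and WT, which overlapped each other, had none above 94.0 CPM.

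*Lox*, the founding member, had 0 counts in the 67NR WT libraries. The *Kmt2c* KO libraries held 0, 2 and 0 counts and the *Kmt2d* KO libraries 2, 4 and 2. These are near the 3 counts that a count of 0 allows, so *Lox* passed no filter on low counts and no fold is given.

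Among the hydroxylases, *Plod1*, whose product modifies lysines in the helical part of collagen, was at 15.6, 15.3 and 12.1 CPM in 67NR WT. Libraries of *Kmt2c* KO stood at 34.7, 30.1 and 29.9 CPM, and those of *Kmt2d* KO at 23.2, 23.8 and 24.2 CPM. The 3 genotypes did not overlap, with *Kmt2d* KO between the others. *Plod1* had a log2 fold change of 1.22 in *Kmt2c* KO (SE 0.156, edgeR adjusted p = 0.000359) and 0.80 in *Kmt2d* KO (SE 0.155, edgeR adjusted p = 0.00565). The 3 groups of 168FARN lay above, and only 67NR *Kmt2c* KO overlapped them.

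*Plod2*, whose product hydroxylates the telopeptide lysines that give the most stable cross-links, had a high replicate 3 in each 67NR group. Its 67NR WT libraries were at 93.3, 104 and 179 CPM. The *Kmt2c* KO libraries were at 171, 176 and 275 CPM and the *Kmt2d* KO libraries at 192, 176 and 291 CPM. The groups overlapped, since WT replicate 3 exceeded replicates 1 and 2 of *Kmt2c* KO and replicate 2 of *Kmt2d* KO, yet in each replicate number both KOs were higher than WT, by 0.62 to 0.87 and 0.70 to 1.04 (log2 ratio). Replicate 3 was 1.58 to 1.81 times the mean of replicates 1 and 2 in all 3 genotypes. The log2 fold change was 0.80 in *Kmt2c* KO (SE 0.308, edgeR adjusted p = 0.0725) and 0.88 in *Kmt2d* KO (SE 0.308, edgeR adjusted p = 0.0711). Without pairing, the calls changed with single libraries: in *Kmt2c* KO the call was lost without WT replicate 1 (0.63), WT replicate 2 (0.68) or KO replicate 3 (0.56), and in *Kmt2d* KO without WT replicate 1 (0.72), WT replicate 2 (0.77), KO replicate 1 (0.97) or KO replicate 3 (0.65), with edgeR adjusted p up to 0.223 and 0.21. With replicates paired both were called, at 0.829 (SE 0.115, edgeR adjusted p = 0.000119) and 0.908 (SE 0.115, edgeR adjusted p = 0.000106), as they were without replicate 3, at 0.893 (edgeR adjusted p = 1.66e-06) and 0.974 (edgeR adjusted p = 8.78e-07). Across groups *Plod2* was highest in the 67NR KOs, which overlapped each other and 168FARN WT. The 3 groups of 168FARN did not overlap one another, and 67NR WT, lowest by its mean, overlapped 168FARN *Kmt2d* KO.

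*Plod3* encodes a hydroxylase that also takes part in adding sugars to hydroxylysines. It ranged over 56.4 to 73.4 CPM among 67NR WT libraries, 60.8 to 73.4 for *Kmt2c* KO and 52.7 to 67.5 for *Kmt2d* KO. The ranges overlapped. The log2 fold change was 0.16 in *Kmt2c* KO (SE 0.17, edgeR adjusted p = 0.522) and 0.02 in *Kmt2d* KO (SE 0.17, edgeR adjusted p = 0.952). *Znhit1*, which overlaps *Plod3*, was not called in either comparison. The order of the groups put the 3 of 168FARN, which overlapped each other, above the 3 of 67NR, which also overlapped each other.

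**Figure D2:**
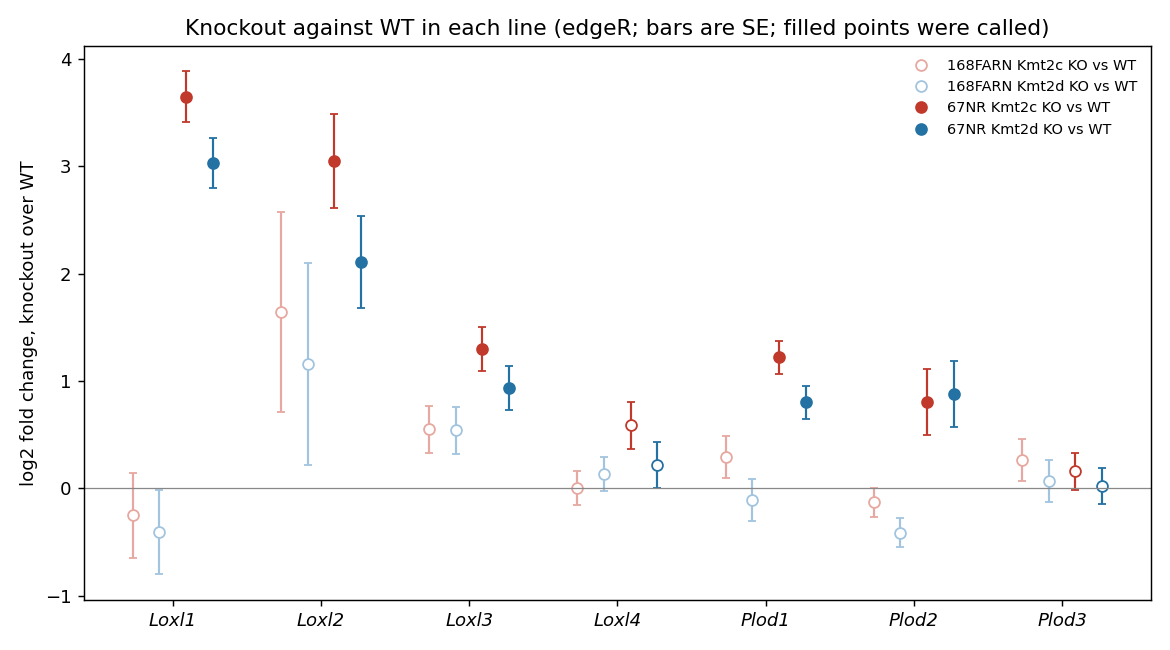
Log2 fold change of KO over WT (y axis) for each tested LOX and PLOD gene (x axis) in the 2 lines, from edgeR; bars are the SE and filled points were called. The 67NR points of *Loxl1* are at 3.65 and 3.03, those of *Plod3* near 0, and no 168FARN point is filled.

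In 168FARN no LOX or PLOD gene was called in either KO, and the spread between replicates was wide. For *Kmt2c* KO, 0 of 7 were called by edgeR, with 1 at an unadjusted p under 0.05 and 0 called by DESeq2. Of all 12253 tested genes edgeR called 0.359%, and DESeq2 called 1.64% of those it tested. For *Kmt2d* KO, 0 of 7 were called by edgeR, with 2 at an unadjusted p under 0.05 and 0 called by DESeq2, against 0.286% of genes called by edgeR and 1.35% by DESeq2. With replicates paired the background rose to 7.23% and 5.9%, and still 0 members were called. At an unadjusted edgeR p under 0.05 there were then 4 members in *Kmt2c* KO and 3 in *Kmt2d* KO. How many of all genes fall under this p was not counted, here or for the counts at this p below. The SEs of the log2 fold changes ran from 0.135 for *Plod2* to 0.941 for *Loxl2*, and an adjusted p that misses the threshold does not show that levels were equal.

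The 168FARN WT libraries had *Loxl1* at 24.9, 25.2 and 13.1 CPM. Libraries of *Kmt2c* KO stood at 20.0, 22.9 and 10.1 CPM, and those of *Kmt2d* KO at 17.8, 19.0 and 10.3 CPM. The groups overlapped, and replicate 3 was the lowest library of each group, at 0.47 to 0.561 times the mean of replicates 1 and 2. In every replicate number both KOs were below WT, and the log2 fold changes were -0.25 (SE 0.394) in *Kmt2c* KO and -0.41 (SE 0.395) in *Kmt2d* KO, each with an edgeR adjusted p of 1. This direction is opposite to that in 67NR. Without replicate 3 of *Kmt2c* KO the value was 0.04. With replicates paired it was -0.272 in *Kmt2c* KO (SE 0.117, edgeR adjusted p = 0.157). In *Kmt2d* KO it was then -0.396 (SE 0.119, edgeR adjusted p = 0.0689), smaller than the threshold on size.

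*Loxl2* in 168FARN depended on replicate 3. WT libraries held 11, 16 and 33 counts (0.376, 0.489 and 0.781 CPM). The *Kmt2c* KO libraries held 58, 115 and 8 counts (1.92, 3.07 and 0.219 CPM), and the *Kmt2d* KO libraries 12, 35 and 19 counts (0.526, 2.5 and 0.716 CPM). Replicates 1 and 2 of *Kmt2c* KO were above WT and replicate 3 was below it. The log2 fold change was 1.64 (SE 0.932) in *Kmt2c* KO and 1.16 (SE 0.941) in *Kmt2d* KO, each with an edgeR adjusted p of 1. Without replicate 3 it was 2.53 (edgeR adjusted p = 0.00507, with 7.98% of genes called higher) and 1.71 (edgeR adjusted p = 0.075, with 5.34%), and *Loxl2* was then called in both.

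The 168FARN WT libraries had *Loxl3* at 54.4, 55.2 and 37.6 CPM. Those of *Kmt2c* KO stood at 81.6, 80.4 and 53.0 CPM, and those of *Kmt2d* KO at 75.4, 66.7 and 69.5 CPM. It was higher in the KO in 3 of 3 replicate numbers for both genotypes, and only *Kmt2d* KO did not overlap WT. The log2 fold change was 0.55 in *Kmt2c* KO (SE 0.222, edgeR adjusted p = 0.754) and 0.54 in *Kmt2d* KO (SE 0.222, edgeR adjusted p = 0.884). With replicates paired the values were 0.54 and 0.57 with adjusted p-values of 0.0187 and 0.0207, both under the threshold on size and not called. *Plod2* stood at 198, 189 and 198 CPM for the WT libraries, 183, 182 and 170 CPM for *Kmt2c* KO, and 151, 130 and 153 CPM for *Kmt2d* KO. None of these 3 groups overlapped. Its log2 fold change in *Kmt2d* KO was -0.41 (SE 0.135, edgeR adjusted p = 0.617; DESeq2 adjusted p = 0.0347), which is smaller than the threshold on size. With replicates paired it was -0.413 (SE 0.101, edgeR adjusted p = 0.0309) and was not called.

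*Loxl4*, *Plod1* and *Plod3* in 168FARN had overlapping groups in both KOs, with 96.5 to 127 CPM, 30.8 to 50.9 CPM and 74.8 to 110 CPM over the 9 libraries. Their log2 fold changes were 0.0016 (SE 0.157), 0.30 (SE 0.195) and 0.27 (SE 0.199) in *Kmt2c* KO and 0.14 (SE 0.157), -0.11 (SE 0.195) and 0.07 (SE 0.199) in *Kmt2d* KO, each with an edgeR adjusted p of 1. With replicates paired, *Plod1* was at 0.307 and *Plod3* at 0.254 in *Kmt2c* KO (edgeR adjusted p = 0.121 and 0.166). In *Kmt2d* KO they were then at -0.1 and 0.0628 (edgeR adjusted p = 0.665 and 0.778). Without replicate 3, *Plod3* in *Kmt2c* KO was at 0.371 (edgeR adjusted p = 0.0311), smaller than the threshold on size. *Lox* had 0 counts in all 9 libraries.

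Whether the KO effect differed between the lines was tested as the interaction over all 18 libraries. The controls were not alike by their column names, with a control guide in 168FARN and WT in 67NR. The paper also reports unequal shares of mutant reads in the pools of the lines, mainly for *Kmt2c*. The part of these differences, or of count table and collection, in the interaction was not tested. For *Kmt2c* KO, 2 of 7 members were called, both with a more positive effect in 67NR, where 8.49% of 13882 genes were called in that direction. *Loxl1* differed by 3.82 on the log2 scale (SE 0.481, edgeR adjusted p = 5.79e-05) and *Plod1* by 0.84 (SE 0.25, edgeR adjusted p = 0.039). With replicates paired, *Loxl3* (0.66, edgeR adjusted p = 0.0238) and *Plod2* (0.87, edgeR adjusted p = 0.0002) were also called, making 4 against 17.4% of genes. For *Kmt2d* KO, 3 of 7 were called in the same direction, against 6.68% of genes: *Loxl1* at 3.38 (SE 0.479, edgeR adjusted p = 0.000276), *Plod1* at 0.85 (SE 0.25, edgeR adjusted p = 0.051) and *Plod2* at 1.23 (SE 0.361, edgeR adjusted p = 0.0505). *Plod1* in *Kmt2d* KO was not called without 168FARN WT replicate 2 (0.83, edgeR adjusted p = 0.109), with the compared groups only (0.86, edgeR adjusted p = 0.11) or with total count scaling (0.82, edgeR adjusted p = 0.169), and *Plod2* was not called without 67NR WT replicate 1 (1.04, edgeR adjusted p = 0.148) or replicate 2 (1.09, edgeR adjusted p = 0.139). With replicates paired both were called, *Plod1* at 0.849 (edgeR adjusted p = 0.00215) and *Plod2* at 1.26 (edgeR adjusted p = 6.42e-06). For *Loxl2* the difference was 1.31 (SE 1.03) and 0.90 (SE 1.04), which was not detectable at this spread.

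The starting levels of the lines also differed. In WT cells, 4 of 7 members were called lower in 67NR than in 168FARN and 0 higher, where 16.9% of genes were called lower and 22.3% higher. *Loxl1* was 8.86-fold lower (log2 -3.15, SE 0.358, edgeR adjusted p = 4.42e-06), *Loxl3* 3.06-fold lower (-1.62, SE 0.225, adjusted p = 3.42e-05), *Plod1* 2.71-fold lower (-1.44, SE 0.18, adjusted p = 1.11e-05) and *Plod2* 1.55-fold lower (-0.63, SE 0.255, adjusted p = 0.0638). The WT libraries of *Loxl2* overlapped between the lines and those of the other tested members did not. How many of all genes are split in this way was not counted. The call of *Plod2* was lost without 168FARN WT replicate 1 (-0.66) or 67NR WT replicate 1 (-0.46) or 2 (-0.51), and was made with replicates paired (-0.685, edgeR adjusted p = 0.00911) and without replicate 3 (-0.999, edgeR adjusted p = 8.97e-08). *Loxl4* (-0.46, SE 0.195, adjusted p = 0.0785), *Plod3* (-0.40, SE 0.186, adjusted p = 0.109) and *Loxl2* (-0.29, SE 0.742, adjusted p = 0.796) were not called by edgeR. *Loxl4* was called at -0.62 without 67NR WT replicate 2. *Htra2*, which overlaps *Loxl3*, was also lower in 67NR, by 0.91 (SE 0.193). This comparison shares its 67NR WT libraries with the KO comparisons, and line, count table and collection cannot be told apart in it. The *Loxl1* libraries of the 67NR KOs, at 14.6 to 32.6 CPM, overlapped those of 168FARN WT, at 13.1 to 25.2 CPM.

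The 2 KOs of 67NR were also compared with each other. No member was called by edgeR, where 1.41% of 13665 genes were called, with 3 at an unadjusted p under 0.05 and 0 called by DESeq2, which called 3.2% of genes. These 3 were higher in *Kmt2c* KO: *Loxl1* by 0.62 (SE 0.212, edgeR adjusted p = 0.316), *Loxl2* by 0.94 (SE 0.402, edgeR adjusted p = 0.441) and *Plod1* by 0.42 (SE 0.154, edgeR adjusted p = 0.358). With replicates paired *Loxl1* (0.62, edgeR adjusted p = 0.0509) and *Loxl2* (1.01, edgeR adjusted p = 0.076) were called, against 7.29% of genes, and without replicate 3 the same 2 were called at 0.71 and 1.35, against 12.6%. In 168FARN, 0 of 7 members were called between the KOs, with 0 at an unadjusted p under 0.05 and 0 called by DESeq2, against 0.253% of genes by edgeR and 1.3% by DESeq2.

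The make-up of each family moved with these levels. When counts per exon length were summed over the lysyl oxidases, *Loxl1* made up 3.23 ± 0.988% for 67NR WT, against 19.1 ± 0.887% for *Kmt2c* KO and 16.5 ± 2.14% for *Kmt2d* KO (SD, n = 3). *Loxl4* made up 79.1 ± 5.71%, 59.3 ± 0.485% and 61.8 ± 5.82%, and *Loxl3* 17.3 ± 4.53%, 20.1 ± 0.467% and 20.6 ± 3.48%. The shares of *Loxl1*, *Loxl2* and *Loxl4* in WT did not overlap with either KO, with a two-sided exact permutation p of 0.1, the smallest that 3 against 3 allows. In 168FARN *Loxl1* made up 14.4 ± 4.21% for WT, 10.8 ± 3.57% for *Kmt2c* KO and 9.50 ± 2.67% for *Kmt2d* KO, and *Loxl4* was the largest share in every group, at 53.2% to 58.6%. The 168FARN share of *Loxl3* was 26.8% for WT and 34.1% for *Kmt2d* KO, without overlap (two-sided exact permutation p = 0.1). For *Kmt2c* KO it was 35.3% and overlapped WT. Shares of a family sum to 100%, so a rise of 1 gene lowers the share of the others.

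Among the hydroxylases *Plod2* was the largest share in every group. In 67NR it was 64.2 ± 10.2% for WT, 71.4 ± 6.62% for *Kmt2c* KO and 75.2 ± 5.60% for *Kmt2d* KO, and in 168FARN 66.2 ± 3.18%, 59.9 ± 3.45% and 59.1 ± 5.81% (SD, n = 3). The shares of *Plod2* in WT and KO overlapped in all 4 comparisons. Within replicate numbers, its share was above WT in 3 of 3 for both 67NR KOs and below WT in 3 of 3 for both 168FARN KOs. In 168FARN the share of *Plod1* was 8.13% for WT and 9.84% for *Kmt2c* KO, without overlap. That of *Plod3* was 25.7% for WT and 32% for *Kmt2d* KO, also without overlap. Both had a two-sided exact permutation p of 0.1.

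**Figure D3:**
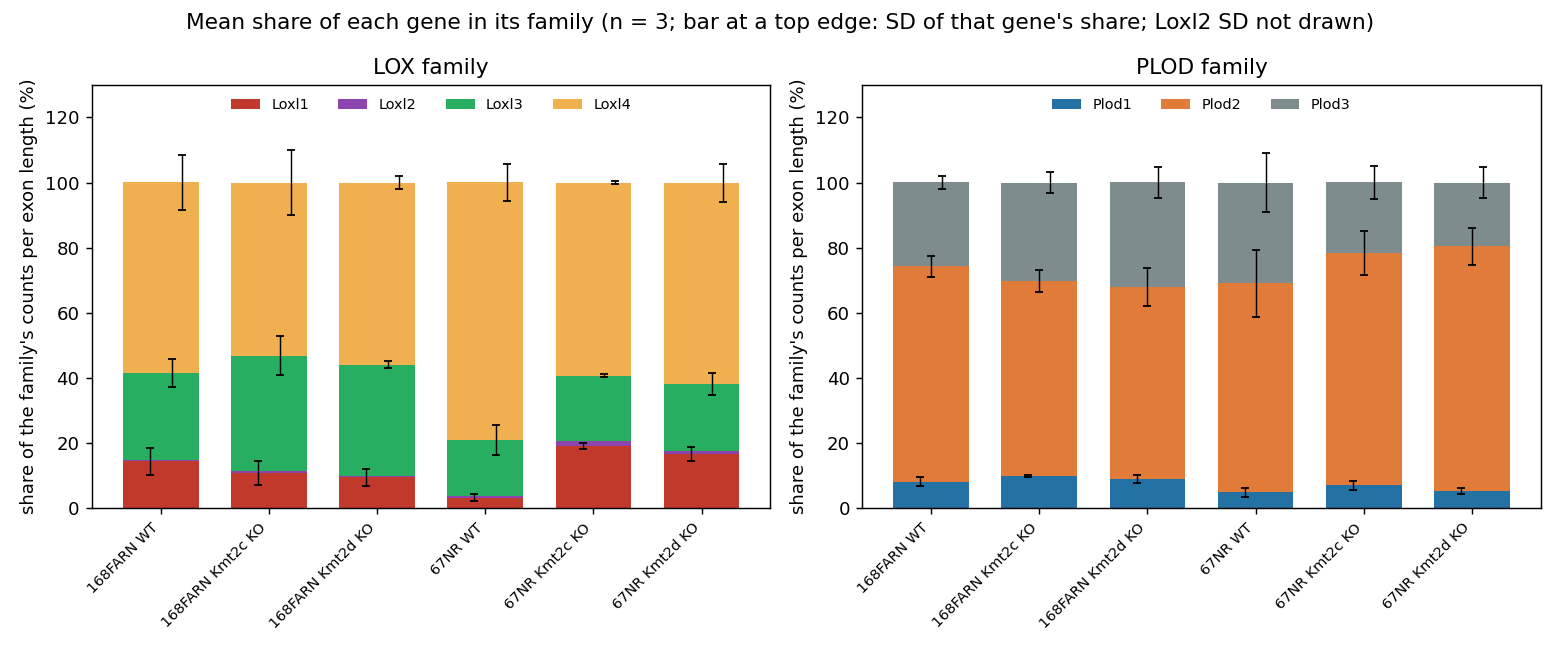
Mean share of each gene in the summed counts per exon length of its family (y axis, percent), for lysyl oxidases (left) and lysyl hydroxylases (right), by line and genotype (x axis); bars at the top edges are the SD of 3 libraries. In 67NR *Loxl1* takes 3.23% in WT and 19.1% and 16.5% in the KOs, while *Plod2* is the largest hydroxylase share throughout.

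Other genes that make, modify or use collagen were read from lists by role, in the 67NR KOs, where 17.9% and 13.9% of all tested genes were called higher and 17.4% and 11.6% lower. Fibrillar collagens are the substrate of these enzymes, and of 9 tested 4 were higher and 0 lower in each KO, with a median log2 fold change of 1.31 and 0.77. They included *Col5a3* (3.92 in *Kmt2c* KO and 3.29 in *Kmt2d* KO), *Col5a2* (2.73 and 2.71) and *Col5a1* (1.31 and 0.77), which encode chains of type V collagen. Of 13 tested genes of collagen modification in the endoplasmic reticulum, 2 were higher and 4 lower in *Kmt2c* KO, and 0 higher and 3 lower in *Kmt2d* KO, with medians of -0.10 and -0.02. *Crtap*, a part of the prolyl 3-hydroxylase complex, fell by 2.16 and 1.13, *P3h4*, a scaffold of a lysyl hydroxylase complex, by 2.52 and 1.92, and *P4ha2*, a prolyl 4-hydroxylase subunit, by 1.56 and 0.99, while *P4ha3* (1.57) and *P3h3* (0.77) rose in *Kmt2c* KO.

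Of 4 tested genes of procollagen processing, 2 were higher and 1 lower in each KO. *Adamts14*, a procollagen N-proteinase, was higher by 2.65 and 2.17 and *Pcolce2* by 1.47 and 1.07, whereas *Bmp1*, the procollagen C-proteinase that also activates lysyl oxidase, fell by 1.44 and 1.11. Elastic fibre genes split, with 4 of 11 higher and 4 lower in *Kmt2c* KO and 2 higher and 3 lower in *Kmt2d* KO. *Emilin1* was higher by 3.21 and 2.54 and *Fbln1* by 2.32 and 2.25, and *Ltbp1* by 0.69 in *Kmt2c* KO. *Ltbp4* fell by 2.28 and 1.46. *Fbln5*, which binds lysyl oxidases to elastic fibres, was lower in both KOs (-4.60 and -3.97), at 0.781 to 1.5 CPM in WT and at most 0.151 CPM in the KOs, with *Fbln2* also lower in *Kmt2c* KO (-1.34) and *Ltbp3* in *Kmt2d* KO (-0.87). The medians were -0.32 and -0.39.

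Copper reaches the secretory lysyl oxidases through the pump ATP7A and the chaperone ATOX1. Of 7 tested copper delivery genes 2 were higher and 0 lower in each KO, namely *Atp7a* (0.66 and 0.67) and *Atox1* (1.58 and 1.07). Hypoxia-inducible genes, of which 12 were tested, had 4 higher and 1 lower in *Kmt2c* KO and 2 higher and 0 lower in *Kmt2d* KO, with *Adm* (3.15 and 3.05) and *Egln3* (1.28 and 1.09) in both, *Slc2a1* (0.72) in *Kmt2c* KO, and *Pfkfb3* lower (-1.51) in *Kmt2c* KO. With replicates paired, the hypoxia-inducible genes had 5 higher and 2 lower in *Kmt2c* KO, and 6 higher and 1 lower in *Kmt2d* KO. Elastic fibre genes then had 4 higher and 5 lower, and 3 higher and 5 lower, against 21.3% of all genes called higher and 19.9% lower in *Kmt2c* KO and 17.4% and 15.4% in *Kmt2d* KO. The fibrillar collagens then had 5 higher in each KO and 1 lower in *Kmt2c* KO. In 168FARN *Col3a1* (-2.74) and *Col5a2* (-1.42) were lower in *Kmt2c* KO among 7 tested fibrillar collagens, and none of the 45 tested genes of the other 5 lists was called by edgeR in either KO. At an unadjusted edgeR p under 0.05 there were 9 of these in *Kmt2c* KO and 4 in *Kmt2d* KO, and 22 and 19 with replicates paired. The share of all genes at this p was not counted. DESeq2 tested 55 genes of these lists and called 2 and 1, against 1.64% and 1.35% of all genes. With replicates paired 5 of the 45 were called in each KO, against 7.23% and 5.9% of all genes.

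**Figure D4:**
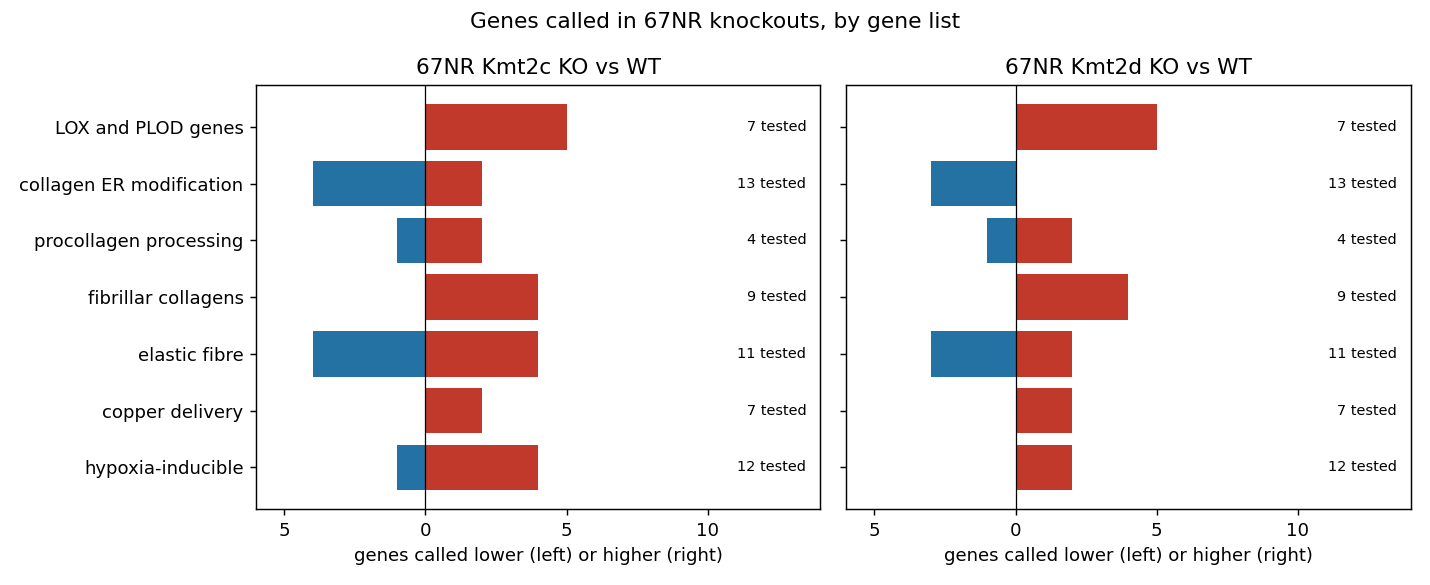
Number of genes called higher (right of 0) or lower (left of 0) in the 67NR *Kmt2c* KO and *Kmt2d* KO against WT (x axis), for the LOX and PLOD genes and 6 lists of collagen, elastic fibre, copper and hypoxia genes (y axis), with the number tested in each. In these fits without pairing, the LOX and PLOD genes and the fibrillar collagens hold higher calls only, whereas the collagen modification and elastic fibre lists hold both.

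Markers of cell state moved in the same 67NR comparisons. In these, 17.9% and 13.9% of all tested genes were called higher and 17.4% and 11.6% lower. The summed level of 10 epithelial markers was 2762 to 4096 CPM in 67NR WT, 584 to 835 in *Kmt2c* KO and 1031 to 1672 in *Kmt2d* KO. Of 9 tested epithelial markers 9 and 6 were lower, with *Cdh1* falling by 2.80 and 1.36. With replicates paired 9 and 9 were lower, against 19.9% and 15.4% of all genes called lower. Of 8 mesenchymal markers 7 were higher in each KO, *Zeb1* by 3.86 and 3.38 and *Snai2* by 4.16 and 4.02, and *Fn1* fell by 1.97 and 1.56. The summed level of all 8 overlapped between genotypes, at 3616 to 6411 CPM in WT, 5045 to 7127 in *Kmt2c* KO and 4625 to 6770 in *Kmt2d* KO. In 168FARN *Epcam* was at 0 in all 9 libraries, *Cdh1* was at most 0.0877 CPM, and the epithelial sum was 101 to 399 CPM, nearly all from *Krt8*, while the mesenchymal sum was 8254 to 14974 CPM.

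The summed level of 6 fibroblast markers was 12.7 to 15.9 CPM in 67NR WT, 128 to 220 in *Kmt2c* KO and 93.5 to 149 in *Kmt2d* KO. Of 5 tested, 4 were higher in each KO, against 17.9% and 13.9% of all tested genes. They included *Pdgfra* (3.84 and 3.28), *Pdgfrb* (3.01 and 2.42) and *Dcn* (4.10 and 3.90). *Ptprc*, the pan-leukocyte gene, was at most 0.151 CPM in any library, and *Pecam1*, the endothelial marker, at most 0.499 CPM. Of 2 tested leukocyte markers 0 were higher in either KO and *Csf1r* was lower in *Kmt2d* KO (-4.51, from 0.165, 0.353 and 3.67 CPM in WT), and of 2 tested endothelial markers *Cdh5* was higher (2.60 and 1.75) with a list sum of at most 2.15 CPM in 67NR. The summed leukocyte level was 22.4 to 40.5 CPM in 67NR WT, 19.2 to 68.7 in *Kmt2c* KO and 25.4 to 79.0 in *Kmt2d* KO. The part of these markers in the levels of the LOX and PLOD genes was not tested, and in bulk RNA a change in the share of cells of a kind and a change in mRNA per cell cannot be told apart.

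The genes with a pattern most like each member were found from Pearson's r of log2(CPM + 1) over the 18 libraries, as a description of libraries that fall into 6 groups, among 13881 genes. They were *Naip6* (0.98) and *Msx2* (0.97) for *Loxl1*, *Twist2* (0.98) and *Ift27* (0.97) for *Loxl3*, and *Ak1* (0.97) and *St6galnac6* (0.96) for *Plod1*. For *Plod3* they were *Map2k7* (0.95) and *Slc25a39* (0.94), for *Plod2* *Bbs10* (0.92) and *Nipa1* (0.90), for *Loxl2* *Rps15a-ps4* (0.88) and *Zfp787* (0.86), and for *Loxl4* *Tor4a* (0.86) and *Cdk14* (0.84). Among the members themselves, *Loxl3* and *Plod1* were the most alike pair at 0.92, and *Plod2* and *Plod3* the least at -0.14.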

How the data were processed

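The authors aligned polyA RNA-seq reads to mm9 with STAR in the VIPER pipeline and deposited raw counts per gene symbol, in 1 table per line, without normalization. All values were whole numbers, every column matched a sample by name, and 27 symbols of the 67NR table had been turned into dates. Libraries were made with strand-specific kits, but whether strand was used in counting is not given in the sources used here. Positions and lengths came from an mm9 annotation (GENCODE), promoters from RefSeq (GRCm38.p6).

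Software was Python 3.11.15 with pandas 2.3.3 and matplotlib 3.10.9, and DESeq2 1.42.0, edgeR 4.0.16 and limma 3.58.1 in R 4.3.3. The test was edgeR's quasi-likelihood test (TMM, robust, filter on low counts by group) on the 9 libraries of a line, or on all 18 libraries for interactions and WT against WT, with Benjamini-Hochberg adjustment over all genes; it was tested on simulated data. The SE was taken as the size of the log2 fold change over the square root of its F statistic. Alternatives were other scaling, filter, thresholds, DESeq2, compared groups only, left-out libraries, no replicate 3 and a replicate block. Replicate numbers were used to pair the samples because collection time is a batch in the study's methods. Same-numbered libraries of a line had deviations that correlated at 0.49 to 0.93 across genes. Replicate 1 of a genotype was about as close to replicate 2 of another, with r between 0.71 and 0.81 for 168FARN. The same pairs of 67NR libraries gave r from 0.40 up to 0.73. The correlations thus set replicate 3 apart, and do not show that replicates 1 and 2 pair by number.

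The named genes are the 8 members, up to 3 called genes per direction with the smallest p-values from each list, the 2 genes most like each member, the targeted genes and overlapping genes; *Epcam*, *Krt8*, *Ptprc* and *Pecam1* were added as defining markers. The lists are fibrillar collagens, collagen modification, procollagen processing, elastic fibre, copper delivery, hypoxia-inducible, and epithelial, mesenchymal, fibroblast, leukocyte and endothelial markers. Members, lists and thresholds were chosen with earlier results of these data known.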

Additional observations from a re-analysis of the deposited data

Results flagged for a closer look

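By the interaction test over 18 libraries, with the limits given for it above, the effect of a KO was called different between the lines in 5 cases. All were more positive in 67NR, where 8.49% of all genes were called in that direction for *Kmt2c* KO and 6.68% for *Kmt2d* KO. *Loxl1* differed by 3.82 on the log2 scale for *Kmt2c* KO and by 3.38 for *Kmt2d* KO, higher in 3 of 3 replicate numbers in 67NR and in 0 of 3 in 168FARN. *Plod1* differed by 0.84 and 0.85, and was higher in 3 of 3 replicate numbers in 67NR for both KOs but in 3 of 3 and 1 of 3 in 168FARN. *Plod2* differed by 1.23 for *Kmt2d* KO, higher in 3 of 3 in 67NR and in 0 of 3 in 168FARN. For *Kmt2d* KO, *Plod1* (edgeR adjusted p = 0.051) and *Plod2* (edgeR adjusted p = 0.0505) were called in 17 and 18 of 20 alternative fits.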

How the results depend on the processing

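Of 1092 alternative values for single LOX and PLOD genes, 1007 kept their direction and side of the threshold, 26 lost a call, 22 gained one and 37 changed sign, all 37 of genes that were not called. *Loxl1*, *Loxl2*, *Loxl3* and *Plod1* stayed called in both 67NR KOs under all 14 other fits. *Plod2* was not called in 67NR *Kmt2d* KO with the compared groups only (0.91) or, in either KO, at an adjusted p under 0.05 in the fit without pairing. The replicate block (replicates paired) changed no call of a LOX or PLOD gene beyond those given with the results. The causes were not tested. Total count scaling moved the median of all genes by -0.187 in 67NR *Kmt2d* KO (1431 higher and 2143 lower calls against 1903 and 1581), by 0.189 between the 67NR KOs (8 and 33 against 18 and 175) and by 0.161 in the *Kmt2c* interaction (1230 and 643 against 1178 and 1048).

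The number of all genes called moved most in 168FARN. For *Kmt2c* KO it was 44, and 278 with DESeq2, 886 with the replicate block, 903 with both, 4 with the compared groups only, 1780 without replicate 3, 23 at an adjusted p under 0.05 and 2 to 57 with a library left out. For *Kmt2d* KO it was 35, and 229, 723, 764, 0, 1346, 19 and 0 to 18 in that order. Between the 168FARN KOs it was 31, and 221, 653, 682, 2 and 1141, with 2 to 35 with a library left out. Between the 67NR KOs it was 193, and 573, 996, 1192, 104, 1743 and 90, with 41 under total count scaling and 42 to 210 with a library left out. For the interactions the replicate block gave 4805 and 3939, DESeq2 with the block 5111 and 4200, and leaving out replicate 3 gave 5303 and 4539, against 2226 and 1471. With a library left out they were 1702 to 2611 and 1047 to 1569.

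The number of LOX and PLOD genes called between the 67NR KOs was 2 with the replicate block, with DESeq2 and the block, and without replicate 3. In the *Kmt2c* interaction it was 4 with the block, with DESeq2 and the block, and with total count scaling, in the *Kmt2d* interaction 1 at an adjusted p under 0.05, and in each 168FARN KO 1 without replicate 3. Under total count scaling the sign changed for *Loxl4* in 168FARN *Kmt2c* KO (-0.08) and in the *Kmt2d* interaction (-0.03), *Plod3* in 168FARN *Kmt2d* KO (-0.02) and 67NR *Kmt2d* KO (-0.16) and *Plod2* between the 67NR KOs (0.15). Without replicate 3 it changed for *Loxl4* in 168FARN *Kmt2c* KO (-0.0019), 67NR *Kmt2d* KO (-0.03) and the *Kmt2d* interaction (-0.31) and *Plod3* in 67NR *Kmt2d* KO (-0.03). With no filter *Loxl4* was at -0.00083 in 168FARN *Kmt2c* KO, and with the block, in edgeR and in DESeq2, *Loxl3* was at -0.02 between the 168FARN KOs.

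With a library left out, values whose sign changed ran from -0.49 to 0.04 for *Loxl1* and -0.09 to 0.1 for *Loxl4* in 168FARN *Kmt2c* KO, -0.07 to 0.16 for *Plod3* in 168FARN *Kmt2d* KO, and -0.01 to 0.37 for *Loxl4* and -0.08 to 0.17 for *Plod3* in 67NR *Kmt2d* KO. Between the KOs they ran from -0.07 to 0.44 for *Loxl1*, -0.21 to 1.46 for *Loxl2* and -0.1 to 0.19 for *Loxl3* in 168FARN, and -0.33 to 0.17 for *Plod2* in 67NR. In the interactions they ran from -0.28 to 0.01 (*Kmt2c*; -0.29 without replicate 3) and -0.22 to 0.12 (*Kmt2d*) for *Plod3*, and -0.21 to 0.18 for *Loxl4* (*Kmt2d*).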
